A study of Mus musculus with 4 samples.

Results

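Semaphorins, plexins and neuropilins were followed through the stroma of the mouse thymus. The members were chosen by symbol from the gene lists of the count files, as every semaphorin of classes 3 to 7, every plexin of the families a to d and both neuropilins. This gave 31 genes of 32285 features, made up of 20 semaphorins, 9 plexins and 2 neuropilins. RNA was measured by droplet-based 3′ single-cell sequencing of CD45- thymic cells from C57BL/6 mice aged 6 months, all untreated. WT 1 and WT 2 came from wild-type mice, which the titles call mock. Z/Z 1 and Z/Z 2 came from mice with LacZ on both copies of Foxn1. This allele lowers but does not abolish the transcription factor on which thymic epithelium depends. The comparison asks which stromal programs differ when Foxn1 is reduced. Each library pooled 10 to 15 thymi, CD45+ cells were depleted and the rest sorted, and sex is male in one label and female in another. With 2 libraries a group, every p-value below measures the spread between these libraries only.

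Semaphorins are secreted or membrane-bound guidance cues, first known for steering axons and later for shaping vessels and immune synapses. Class 3 semaphorins are secreted, and most act through complexes in which a neuropilin binds the ligand and a class A plexin signals. Sema3e is an exception that binds Plxnd1 directly. Classes 4 to 7 are anchored in the membrane, with Sema4d known as a ligand of Plxnb1, Sema6a of Plxna2 and Plxna4, and Sema7a of Plxnc1 and of integrins. Neuropilins also serve as co-receptors for vascular endothelial growth factors. In the thymus, the family is known for effects on thymocyte adhesion and migration.

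The 4 libraries held 13981 called cells, of which 9846 were kept, with 8468086 (WT 2) to 50705511 (Z/Z 1) unique molecular identifiers (UMIs). Cells were grouped by marker genes into thymic epithelial cells (TECs), fibroblasts (FBs), endothelial cells (ECs) and mural cells (pericytes and smooth muscle). Values for the libraries always run from WT 1 through WT 2 and Z/Z 1 to Z/Z 2, so TECs numbered 552, 104, 1960 and 1549, FBs 600, 192, 1207 and 736, and ECs 110, 25, 698 and 670. Mural cells numbered 69, 11, 410 and 314 and were described without a test, because WT 2 held fewer than 20. TECs of WT held a median of 16863.5 and 17716.5 UMIs a cell against 6746.5 and 7042 for those of Z/Z. This order did not hold in every class, since mTEC1-like cells had medians of 8661, 11314, 17461 and 15564 UMIs. The 2 WT libraries shared 16 kept barcodes and the 2 Z/Z libraries 33, whereas libraries of different genotype shared at most 2. Among called barcodes, before filtering, the WT libraries shared 202 and the Z/Z libraries 249, against at most 6 across genotypes. WT 2 held 1192 called barcodes. How far this sharing limits the independence of the 2 libraries of a genotype was not tested. Foxn1 in TECs, the altered gene, stood at 89.2, 116, 50.7 and 68.3 CPM (UMIs per 1000000 UMIs of the lineage in that library), so both Z/Z libraries lay below both WT libraries. No source used here gives the place of the LacZ cassette, so how far 3′ tags report on the altered allele is not known.

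Levels are given as CPM of the UMIs summed over all cells of a lineage in a library, not divided by gene length. Because lineages were built from the same cells, these levels are a description and carry no test. Of the 31 members, 20 averaged at least 10 CPM in TECs, 18 in FBs, 17 in ECs and 16 in mural cells. At least 100 CPM was reached by 2 members in TECs, 6 in FBs, 9 in ECs and 5 in mural cells. Endothelium stood out by its number of separated genes: of the 10 members highest in ECs, 9 lay above the next lineage in every library. The same held for 3 of 9 members highest in FBs, 2 of 7 in TECs and 2 of 5 in mural cells. Sema4f had 0 UMIs in ECs and averaged under 1 CPM in the other lineages, as did Plxnb3 in all 4.

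**Figure D1:**
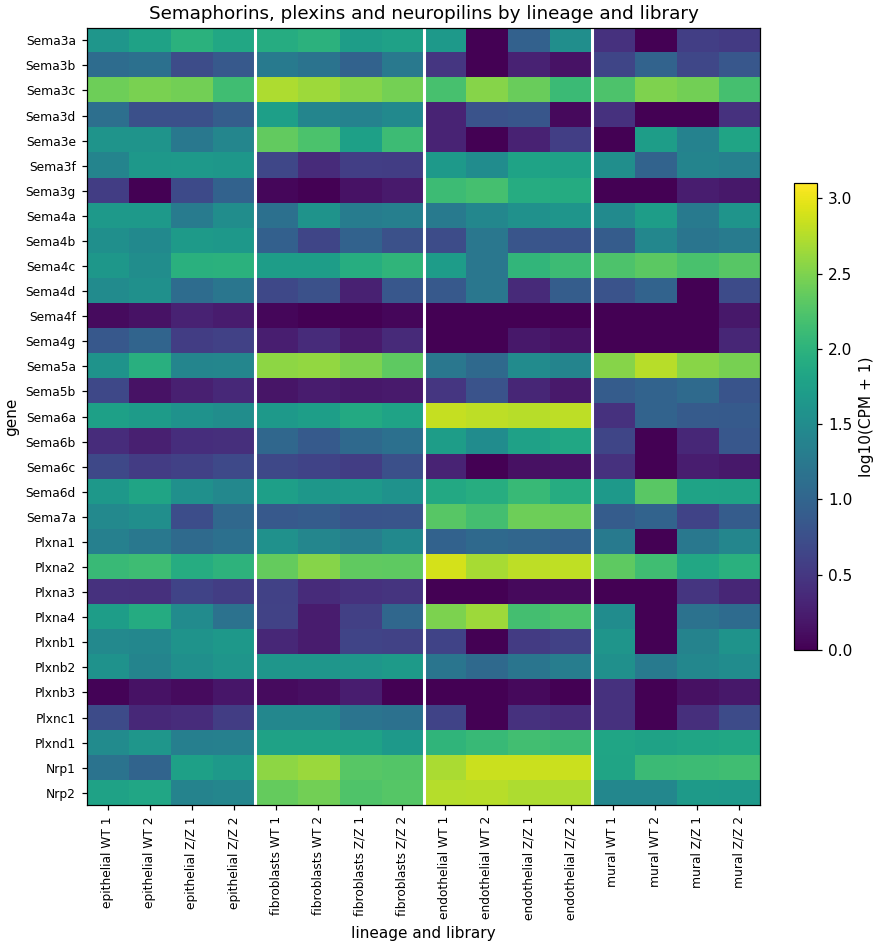
Level of each of the 31 members (rows) in each lineage and library (columns), as log10(CPM + 1) of the UMIs summed over the cells of that lineage. Sema6a, Sema7a, Sema3g and Plxna4 are brightest in the 4 endothelial columns, Sema5a in the fibroblast and mural columns, and Sema3c is bright in all 16 columns.

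ECs carried both receptors and ligands at high levels. Nrp1, the neuropilin shared by Sema3a and vascular endothelial growth factor, had 505, 704, 710 and 701 CPM in ECs. The signalling plexin Plxna2 had 796, 489, 611 and 638 CPM there. Its ligand Sema6a had 676, 625, 583 and 619 CPM. All 3 genes lay above FBs, the next lineage, in every library. Nrp2, the neuropilin of lymphatic and venous vessels, averaged 544 CPM in ECs and 219 CPM in FBs, and the libraries of those lineages did not overlap either.

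Among the tested lineages, 4 members with at least 10 UMIs in each EC library averaged at least 5-fold more in ECs than in either other one. Sema6b, with 6 UMIs in the ECs of WT 2, fell short of that minimum at a ratio of 5.26 to FBs. Sema3g, a secreted semaphorin known from arteries, had 131, 152, 81.5 and 78.7 CPM in ECs, 29.6-fold its mean in TECs. Sema7a, a semaphorin tethered to the membrane by a lipid anchor, had 195, 147, 257 and 254 CPM, which was 11.3-fold its level in TECs. For Sema6a the step down to FBs was 10.6-fold. Plxna4, a class A plexin, had 308, 441, 150 and 164 CPM and stood 6.04-fold above TECs. Below the endothelial level, lineages next to each other in the order of Sema3g, Sema7a and Plxna4 had overlapping ranges, so the lower end of these orders is not resolved.

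FBs led in the secreted ligand Sema3c and in Sema5a among the tested lineages. Sema3c, a secreted semaphorin that acts through either neuropilin, had 523, 445, 345 and 282 CPM in FBs. Sema5a, a membrane semaphorin with thrombospondin repeats, had 376, 391, 309 and 216 CPM, 7.29-fold its mean in TECs. Nrp1 stood at 372, 433, 196 and 188 CPM, with the WT libraries above both Z/Z libraries. Plxnc1, the receptor of Sema7a, was a low member with 26.5, 25.9, 14.7 and 13.4 CPM, and still 8.50-fold its mean in TECs. Sema3e averaged 145 CPM and was spread from 57.1 to 226 CPM over the libraries. In mural cells Sema5a was higher on average than in FBs, at 340, 590, 356 and 288 CPM, though these ranges overlapped. Sema3c had 171, 312, 272 and 151 CPM in mural cells. Sema4c, a membrane semaphorin that binds class B plexins, had 171, 208, 163 and 195 CPM there, above every library of the other 3 lineages.

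TECs had few high members. Sema3c was first with 258.5, 296, 273 and 141 CPM, followed by Plxna2 with 127, 137, 81.7 and 99.9 CPM. Sema3a, the classic repulsive ligand of Nrp1, followed with 41.8, 59.5, 93.6 and 70.8 CPM, and its range overlapped that in FBs. Plxnb1, the receptor of Sema4d, was 15.8-fold higher in TECs than in ECs, with 28.0, 26.3, 37.7 and 44.3 CPM. Mural cells averaged 25.3 CPM of Plxnb1 and overlapped with TECs.

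The broad level of Sema3c has to be read beside free RNA. In droplets of at most 100 UMIs, taken as empty, Sema3c made up 428, 521, 453 and 183 CPM. Lymphoid cells, pooled over the libraries, had 251 CPM. In TECs, ECs and mural cells Sema3c was below its empty-droplet level in every library. In FBs it was above that level in WT 1 and Z/Z 2 and below it in WT 2 and Z/Z 1. Empty-droplet RNA was estimated to supply 3.86% to 11.9% of the UMIs in TEC sums, 2.20% to 3.81% in FB sums and 2.37% to 4.69% in EC sums. These shares were set from markers of other lineages, so expression of such markers by the cells themselves could raise them. With that RNA subtracted, Sema3c in TECs averaged 231 CPM, against 242 before. The total UMIs of each sum shrank as well, so these values do not give the share of Sema3c that was removed. Levels of Sema6a (15.8 to 92.1 CPM), Sema3g (1.76 to 16.6 CPM) and Plxna4 (10.0 to 30.8 CPM) in empty droplets were far below those in ECs.

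Within the endothelium, the members fell along the vessel tree. Values over classes are pooled over the libraries, and the members had been held out of the clustering. Arterial-like ECs held most of the Sema3g signal, with 380 CPM against 27.3 in capillary-like and 1.28 in venous-like ECs. Venous-like ECs had the most Sema6a, with 1291 CPM against 402 in arterial-like and 410 in capillary-like cells. They also led in Nrp2, with 803 CPM against 141 in arterial-like cells, and in Plxna4, with 322 CPM. Among the named classes Nrp1 ran the other way, with 975 CPM in capillary-like, 494 in arterial-like and 265 in venous-like ECs. Capillary-like ECs numbered 12, 1, 381 and 331, so their pooled values rest mostly on the Z/Z libraries. They include a cluster of 133 cells, 113 of them from Z/Z 2, with Themis, also a leading gene of the lymphoid cluster, among its leading genes. Sema7a was lowest in venous-like ECs, at 84.4 CPM, and stood at 255 and 297 CPM in arterial-like and capillary-like ECs. Sema3a was seen mainly in venous-like ECs, at 96.4 CPM pooled, but with 141, 0, 30.3 and 145 CPM in the libraries it varied widely and WT 2 held 6 such cells.

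Capsular-like FBs, those with Dpp4, Pi16 and Smpd3, carried a set of class 3 ligands of their own. Their Sema3c stood at 1341, 1261, 724 and 636 CPM, above the empty droplets of every library, whereas the other FB classes pooled at 157 to 255 CPM. Sema3e, the ligand of Plxnd1, had 704, 665, 221 and 380 CPM in capsular-like FBs and pooled at no more than 14.9 CPM in each other class. Sema3d pooled at 120 CPM in capsular-like and 2.04 CPM in intermediate-like FBs. Nrp1 was low in capsular-like FBs, at 69.3 CPM pooled, against 237 in intermediate-like and 420 in medullary-like FBs. An unnamed FB cluster of 99 cells, led by Htr1f and Kcnma1, had the highest Nrp1 of the FB clusters, at 1022 CPM.

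Pericyte-like and smooth-muscle-like cells differed in the same families. Sema5a pooled at 787 CPM in pericyte-like and 242 CPM in smooth-muscle-like cells. The corresponding values were 369 and 76.4 CPM for Nrp1 and 223 and 29.3 CPM for Sema6d, while Sema4c, at 183 and 175 CPM, hardly differed. WT 1 and WT 2 held 7 and 3 pericyte-like cells, so these pooled values rest mostly on the Z/Z libraries. A mesothelial-like cluster of 31 cells, all from Z/Z, had 878 CPM of Plxna4.

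Among epithelial classes, tuft-like TECs, the chemosensory cells of the medulla, carried Sema5a at 429, 799, 424 and 425 CPM. They also had Plxna4 at 205, 295, 177 and 48.9 CPM and Sema3a at 249, 194, 165 and 127 CPM. The other epithelial classes of at least 50 cells pooled at no more than 61.9 CPM of Sema5a. Sema3e reached 713 CPM in neuro-like TECs, a class of 20 cells. An unnamed cluster of 36 cells led by proton-pump genes with Foxi1 and Ascl3 had 503 CPM of Plxna4, but 740 and 177 CPM in its 2 libraries. A further unnamed cluster of 121 cells had 537 CPM of Sema3a. The plot of levels by class shows these peaks beside the broader pattern of Plxna2, Plxnb2 and Sema4c.

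**Figure D2:**
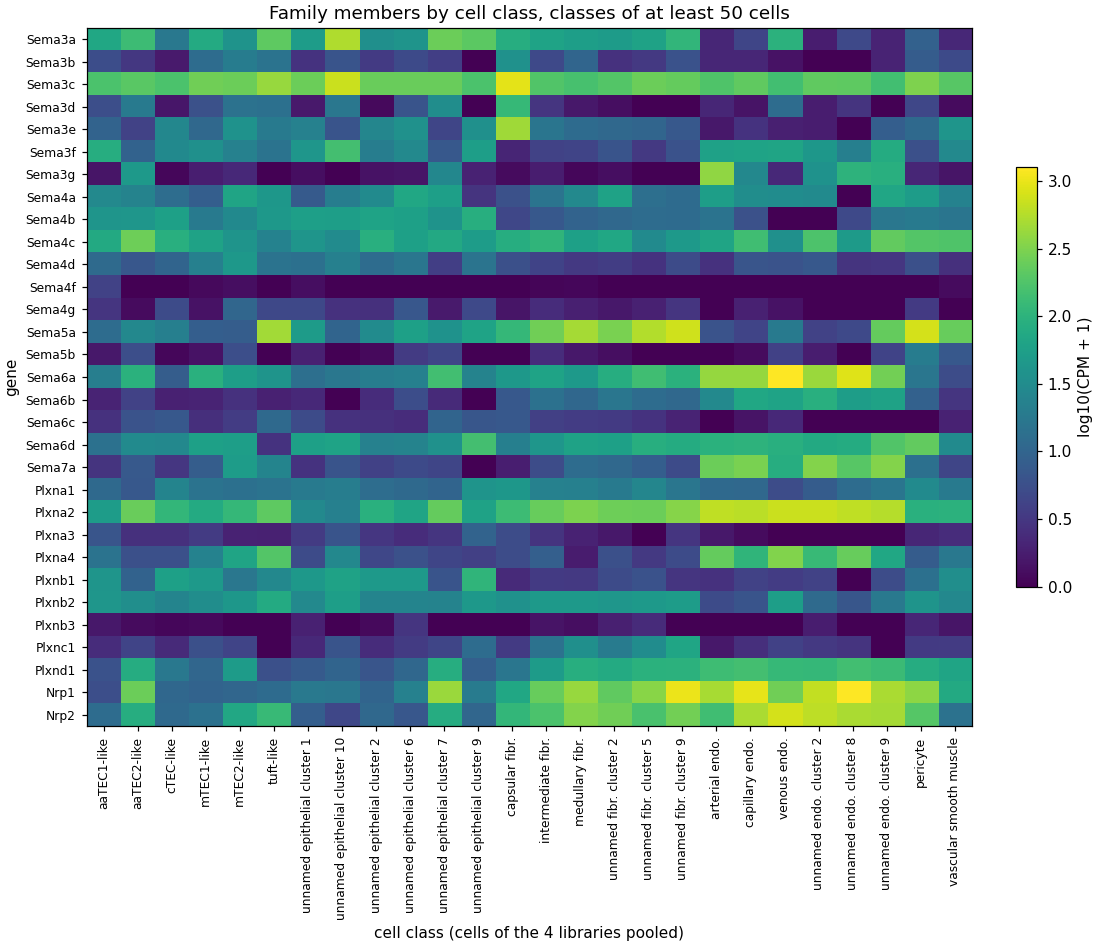
Level of each member (rows) in each class of at least 50 cells (columns), as log10(CPM + 1) with the cells of the 4 libraries pooled. Sema3g stands out in arterial endothelium, Sema6a in venous endothelium, Sema3c and Sema3e in capsular fibroblasts, Sema5a in tuft-like TECs, fibroblasts and pericytes, and Nrp1 in aaTEC2-like TECs and epithelial cluster 7.

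In TECs, receptors and ligands moved in both directions between genotypes. Of the 31 members, 30 passed the filter on low counts and 6 were called at an adjusted p of 0.05, 3 higher and 3 lower in Z/Z. Over all 18872 genes tested in TECs, 21.1% were called, 9.3% as higher and 11.8% as lower, so 6 of 30 is close to the background of this lineage. At an unadjusted p under 0.05 there were 17 of 30 members against 38.0% of all genes. The median log2 fold change of the 30 members was −0.45 and that of all genes −0.01, and 12 of 30 members were above 0.

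Neuropilins took opposite directions. Nrp1 (GRCm38 chromosome 8, 128358604 to 128503363) had 14.2, 9.05, 57.3 and 46.1 CPM in TECs. It rose in Z/Z by 2.23 on the log2 scale (SE 0.27, edgeR adjusted p = 0.010), with both Z/Z libraries above both WT libraries. Nrp2 (chromosome 1, 62703285 to 62818695) had 59.5, 67.2, 23.1 and 25.6 CPM. It fell by 1.24 on the log2 scale (SE 0.17, edgeR adjusted p = 0.0125), again without overlap.

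Among the membrane semaphorins, Sema4c (chromosome 1, 36548639 to 36558349) had 43.1, 32.3, 91.8 and 94.3 CPM in TECs and rose by 1.41 (SE 0.18, edgeR adjusted p = 0.0108). Sema4d (chromosome 13, 51685529 to 51793747), a ligand shed by lymphocytes as well, had 30.1, 35.3, 11.4 and 15.7 CPM and fell by 1.13 (SE 0.24, edgeR adjusted p = 0.0312). Sema7a (chromosome 9, 57940112 to 57962865) had 28.0, 32.8, 4.45 and 10.2 CPM and fell by 1.91 (SE 0.42, edgeR adjusted p = 0.0334). The receptor Plxnb1 (chromosome 9, 109095389 to 109119917) rose by 0.72 (SE 0.18, edgeR adjusted p = 0.0435) from the levels given above. In all 4 genes the WT and Z/Z libraries were apart. Empty droplets held 80.4, 110, 17.0 and 54.3 CPM of Sema4d and 22.9, 21.1, 85.2 and 79.7 CPM of Sema4c, so free RNA of both genes also differed between genotypes. Nrp1 had 104, 103, 144 and 148 CPM in empty droplets, Nrp2 68.2, 64.0, 97.9 and 77.6 CPM and Sema7a 71.7, 85.7, 43.9 and 60.7 CPM. Each was above its TEC level in every library, except Nrp2 in WT 2, where the TEC level was slightly higher. With the empty-droplet RNA subtracted, Nrp1 (2.89), Nrp2 (−1.71), Sema4c (1.39), Sema4d (−1.30) and Sema7a (−3.51) were still called, whereas Plxnb1 had 0.72 with an adjusted p of 0.0576.

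**Figure D3:**
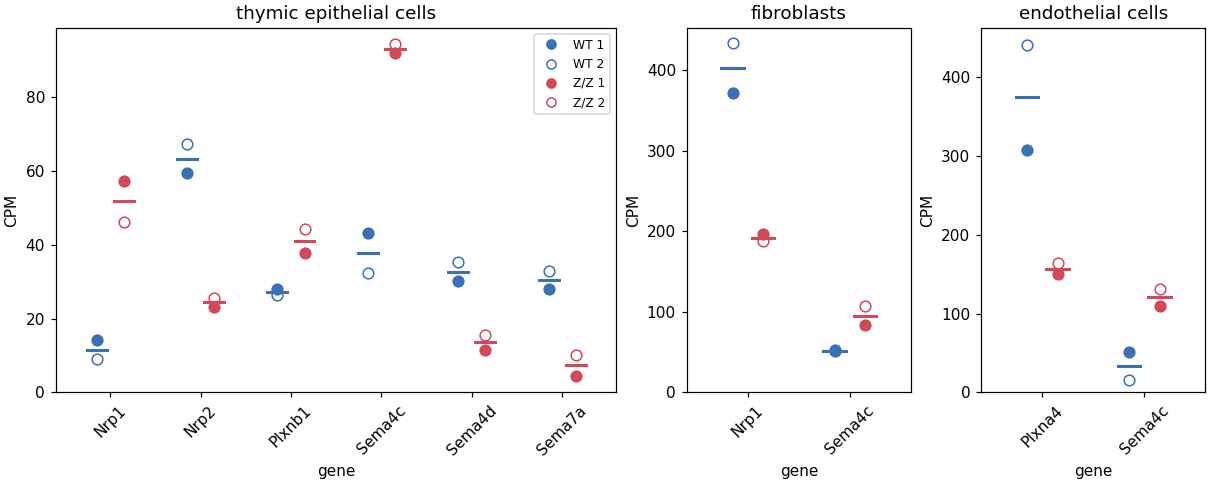
CPM of each called member in TECs, fibroblasts and endothelial cells, with 1 point per library (blue WT, red Z/Z, filled replicate 1, open replicate 2) and a bar at the mean of the 2 libraries. In no called member do the WT and Z/Z points overlap.

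These sums mix epithelial classes whose numbers differed between genotypes, and in a sum fewer cells of a class and less RNA per cell cannot be told apart. mTEC2-like cells, the Aire-expressing class, numbered 252, 45, 41 and 61. aaTEC2-like cells, named after the age-associated TECs of the study, numbered 10, 0, 389 and 286, and a neighbouring unnamed cluster, led by Ldb2 and Kcnd3, 3, 0, 164 and 95. Within mTEC2-like cells Nrp2 had 71.3, 94.5, 66.0 and 57.7 CPM, still without overlap but with closer values than in the sums. Sema4d had 43.9, 48.4, 44.0 and 37.0 CPM and the groups overlapped. Sema7a had 48.2, 43.8, 53.1 and 68.1 CPM, so here both Z/Z libraries lay above both WT libraries, the opposite of the order in the sums. Nrp1 had 11.3, 5.29, 7.77 and 7.14 CPM within this class and its groups overlapped. No test was made within classes. The leading genes of the mTEC2-like cluster were Csn2, S100a8, Cd52, Bcl2a1b, Lypd8, Gm29461, Prg2, Lyz1, S100g and Defb6. This list mixes genes known from immune cells, such as Cd52, with others that are not, such as Csn2. The 6 myeloid markers summed to 287, 743, 63.0 and 91.8 CPM in TECs, all 6 detected. The part of these markers in the result was not tested.

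Nrp1 was concentrated in 2 of the classes found mainly in Z/Z. Pooled, it had 251 CPM in aaTEC2-like cells and 430 CPM in the Ldb2 cluster, against 4.62 to 22.3 CPM in the other classes of at least 50 cells. Sema4c, at 259 CPM, and Plxna2, at 243 CPM, were also high in aaTEC2-like cells. The epithelial label of these cells is weak. Epcam was detected in 13.4% of aaTEC2-like cells and 4 of 10 epithelial markers in at least 20% of them, while 3 of 6 fibroblast and 3 of 6 smooth muscle markers reached that share. Summed, the epithelial markers made up 836 CPM, the fibroblast markers 938 and the smooth muscle markers 1412. Fibroblast and smooth muscle markers were also among those that set the empty-droplet share of TECs. How far RNA of these cells entered that share, and so the subtraction, was not tested. In the Ldb2 cluster 2 of 10 epithelial markers were detected. No endothelial marker of 6 passed that share in either, and Pdgfra was seen in 1.02% and 0.763% of their cells.

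The epithelial calls therefore depended on which clusters counted as epithelium. The rule that names clusters was the fifth of 5 versions tried after seeing the clusters, and members called numbered 6 with it, 7 with the second and 3 with the third. The fourth version gave the same cells as the third. The third left out a cluster of 280, 47, 65 and 86 cells whose leading genes, such as Csn2 and S100g, also led the mTEC2-like cluster. The first left out that cluster and another of 12, 0, 553 and 380 cells, led by Nos1 and Slc26a7. The second added an unnamed cluster of 0, 0, 110 and 32 cells. The versions and the removals of classes below thus overlap and are not separate checks. With the first version, which kept 260, 57, 1342 and 1083 TECs, 1 of 27 members was called and Nrp1 stood at −0.41 (edgeR adjusted p = 0.446). Without mTEC2-like cells 2 members were called, Nrp1 (1.86) and Sema4c (1.14). Without aaTEC2-like cells 8 were called, and without both classes 0, by edgeR, with 8 of 29 at an unadjusted p under 0.05. Over all genes, 21.1% were called with the fifth version, 21.3% with the second, 3.87% with the third and 2.3% with the first. The share was 3.23% without mTEC2-like cells, 19.5% without aaTEC2-like cells and 1.72% without both. Without both, 20.4% of all genes had an unadjusted p under 0.05. Without Z/Z 1 no gene at all was called in TECs. Of the 4 fits that left out a library, Plxnb1 lost its call in 4 (adjusted p 0.0768 to 0.197), Sema4d in 3 (up to 0.167), Nrp2 in 2 (up to 0.0881) and Nrp1, Sema4c and Sema7a in 1 each (up to 0.0635, 0.0662 and 0.0946).

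**Figure D4:**
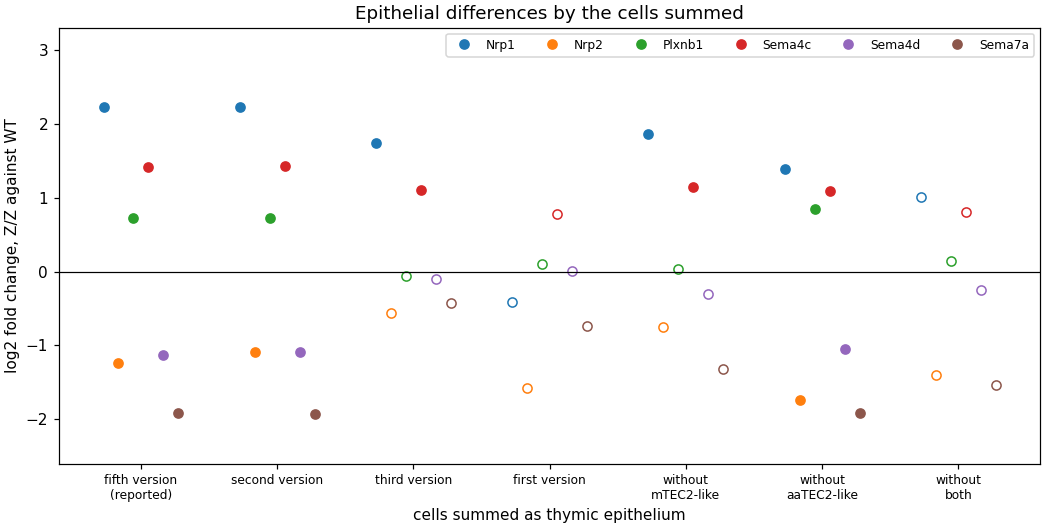
log2 fold change, Z/Z against WT, of the 6 members called in TECs (y axis) when different cells are summed as epithelium (x axis). Filled points passed an adjusted p of 0.05 and open points did not, and Nrp1 changes sign under the first version of the naming rule.

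Promoters of called members were searched for GACGC on either strand, the core of the sequence that Foxn1 is known to bind. Of 32851 RefSeq promoter windows of 300 bases (GRCm38.p6, 250 bases before to 50 after the start), 27.2% held it. A window was found for 26 of 31 members, 37 windows in all, and 11 of these held the motif. Among the 6 genes called in TECs it was present for Nrp2, Plxnb1 and Sema7a and not in the windows of Nrp1, Sema4c and Sema4d. The windows of both neuropilins and of the other 2 genes with a match are shown 5′ to 3′ with the motif in capitals, at chr8:128358823-128359122, chr1:62703067-62703366, chr9:109095186-109095485 and chr9:57939862-57940161, all on the plus strand. A match is a run of letters and not a binding site.
Nrp1: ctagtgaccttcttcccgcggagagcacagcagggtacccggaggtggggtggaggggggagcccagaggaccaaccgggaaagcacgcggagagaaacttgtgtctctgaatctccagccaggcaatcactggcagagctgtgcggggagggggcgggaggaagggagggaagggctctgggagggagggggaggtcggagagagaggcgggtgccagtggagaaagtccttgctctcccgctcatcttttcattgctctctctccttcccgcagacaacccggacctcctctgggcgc
Nrp2: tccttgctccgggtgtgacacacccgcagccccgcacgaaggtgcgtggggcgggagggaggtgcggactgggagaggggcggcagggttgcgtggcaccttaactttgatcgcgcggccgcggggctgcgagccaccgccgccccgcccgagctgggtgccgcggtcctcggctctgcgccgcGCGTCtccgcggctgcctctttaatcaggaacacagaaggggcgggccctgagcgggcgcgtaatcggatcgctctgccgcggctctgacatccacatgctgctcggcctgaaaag
Plxnb1: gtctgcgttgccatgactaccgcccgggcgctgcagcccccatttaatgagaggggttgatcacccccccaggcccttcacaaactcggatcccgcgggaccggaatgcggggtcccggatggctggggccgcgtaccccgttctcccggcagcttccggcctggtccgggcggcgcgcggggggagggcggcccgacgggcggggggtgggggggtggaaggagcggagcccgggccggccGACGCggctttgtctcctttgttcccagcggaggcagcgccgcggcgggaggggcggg
Sema7a: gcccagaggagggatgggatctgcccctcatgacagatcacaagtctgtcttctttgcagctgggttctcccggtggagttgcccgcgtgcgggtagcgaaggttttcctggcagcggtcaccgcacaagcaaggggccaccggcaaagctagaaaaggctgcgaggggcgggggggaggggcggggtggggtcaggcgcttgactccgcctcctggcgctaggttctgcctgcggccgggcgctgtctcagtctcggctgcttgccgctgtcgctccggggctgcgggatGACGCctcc

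In FBs the change was small in number and included a drop in Nrp1. Of 27 members tested, 2 were called, against 2.9% of 13882 genes. With 1 higher and 1 lower, they stand beside 1.72% of genes higher and 1.18% lower in Z/Z. With the called members included, 10 members had an unadjusted p under 0.05, against 18.0% of genes. Nrp1 fell from the WT values given above by 1.01 on the log2 scale (SE 0.16, edgeR adjusted p = 0.0150). Its direction was the opposite of that in TECs. Sema4c had 51.5, 52.2, 83.9 and 107 CPM and rose by 0.94 (SE 0.18, edgeR adjusted p = 0.0244). The WT and Z/Z libraries did not overlap for either gene. Among members not called, Sema3a had −0.64 (adjusted p = 0.0842), Sema3c −0.56 (adjusted p = 0.125), Sema3e −1.01 (adjusted p = 0.15) and Plxnc1 −0.84 (adjusted p = 0.0702).

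FB classes also shifted. A medullary-like cluster held 232, 93, 3 and 6 cells, and an unnamed cluster, with the pericyte markers Vtn and Kcnj8 among its leading genes, 5, 3, 288 and 80. The 6 pericyte markers, all detected, summed to 316, 389, 644 and 339 CPM in FBs, and their part in the result was not tested. Within medullary-like FBs Nrp1 had 493, 396, 167 and 269 CPM, and within intermediate-like FBs 295, 356, 224 and 230 CPM, in both cases without overlap between genotypes. In capsular-like FBs it had 61.9, 71.1, 76.8 and 68.4 CPM and the groups overlapped. Sema4c had 49.9, 49.1, 106 and 111 CPM in capsular-like, 48.6, 65.4, 100 and 128 CPM in intermediate-like and 53.9, 52.9, 74.7 and 68.8 CPM in medullary-like FBs. Without the 7 clusters in which 1 genotype held under 5% and the other at least 5% of its FBs, 4 members were called, against 2.33% of genes. Among the called members were Nrp1 (−0.78, edgeR adjusted p = 0.0452) and Sema4c (1.13, adjusted p = 0.0279). Of the 4 fits that left out a library, Sema4c passed in none (adjusted p 0.0846 to 0.400) and Nrp1 in the one without WT 1 (adjusted p = 0.0462).

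In ECs, 2 of 21 members tested were called, 1 higher and 1 lower, against 2.05% of 11367 genes, 1.06% higher and 0.985% lower. Of the 21, 5 had an unadjusted p under 0.05, against 18.5%. Plxna4, a receptor of class 3 and class 6 semaphorins (chromosome 6, 32144268 to 32588192), fell by 1.20 on the log2 scale (SE 0.22, edgeR adjusted p = 0.0201). Sema4c had 51.1, 15.8, 110 and 132 CPM and rose by 1.49 (SE 0.32, edgeR adjusted p = 0.0382). Its WT values rest on 48 and 3 UMIs, so the size of the rise is poorly set. Sema3g, at −0.78, had an adjusted p of 0.0798 and was not called, and the receptors Nrp1 (0.26, 0.548), Nrp2 (−0.14, 0.754) and Plxna2 (−0.08, 0.899) had no detectable difference at this depth.

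Capillary-like ECs numbered 12, 1, 381 and 331, so ECs of the 2 genotypes had a different make-up. Plxna4 had 400, 781, 303 and 297 CPM within venous-like and 429, 250, 181 and 237 CPM within arterial-like ECs, with no overlap in either class. Sema4c had 137, 140, 126 and 156 CPM within capillary-like ECs, where the groups overlapped, and 37.9, 0, 59.1 and 82.4 CPM within arterial-like ECs. WT 2 had 5 arterial-like and 6 venous-like cells. The 6 pericyte markers, all detected, summed to 84.1, 68.3, 301 and 282 CPM in ECs, and their part in the result was not tested. Without Z/Z 2 neither gene was called (Plxna4 −1.27, adjusted p = 0.0893, and Sema4c 1.44, adjusted p = 0.0732), and without Z/Z 1 Plxna4 was not (−1.16, adjusted p = 0.183).

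Sema4c was the single member called in TECs, FBs and ECs, each time with a positive fold change, and its change did not differ detectably between lineages. The interaction was −0.45 for FBs against TECs (edgeR adjusted p = 0.349) and 0.28 for ECs against TECs (adjusted p = 0.724). The lineages come from the same 4 libraries, and the empty droplets of these libraries were also higher in Sema4c in Z/Z, so the 3 calls are not independent. After subtraction of empty-droplet RNA Sema4c was called in FBs (0.93) and in ECs (1.47) as well. In mural cells, by contrast, its values in WT and Z/Z overlapped. With cells thinned to 2000 UMIs it was called in TECs (1.14) and neither in FBs (0.80, adjusted p = 0.109) nor in ECs (0.98, adjusted p = 0.272).

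A test of the interaction between lineage and genotype was made for 29 members. In FBs against TECs it called 5 of 29 members, where 12.8% of 17650 genes were called, and in ECs against TECs 7 of 29, where 6.52% were called. The Z/Z change was above that in TECs for 4 of the 5 (6.05% of genes) and below it for 1 (6.75%), and in ECs above it for 5 of the 7 (3.63%) and below it for 2 (2.88%). At an unadjusted p under 0.05 there were 7 members (25.9% of genes) and 9 members (20.4%). Nrp1 differed most clearly between FBs and TECs, by −3.11 on the log2 scale (SE 0.28, edgeR adjusted p = 2.75e-05). Sema7a differed most clearly between ECs and TECs, by 2.64 (SE 0.37, edgeR adjusted p = 0.00131). Over 5 alternatives, with no filter on low counts or with other cells summed as TECs, this Nrp1 difference ranged from −3.16 to −0.57. It was called in 4 of them, with an edgeR adjusted p of up to 0.333. The Sema7a difference ranged from 1.21 to 2.68 and was called in 2, with an edgeR adjusted p of up to 0.259. The median over all genes was 0.01 for FBs against TECs and 0.24 for ECs against TECs. Both tests used the same epithelial sums. With the first version of the naming rule 1 member was called in each, where 2.95% and 1.32% of all genes were called.

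Partners of the family were read from 13 co-receptors and shared ligands and 24 intracellular effectors. In TECs all 13 partners were tested, 2 higher and 2 lower in Z/Z, and all 24 effectors, 8 higher and 2 lower. The vascular endothelial growth factor receptors split, with Kdr, named after its value was seen, at 3.1 (SE 0.56) and Flt1 at −1.87 (SE 0.24). Among effectors, the plexin-associated exchange factor Farp1 rose by 1.31 (SE 0.15) and Dpysl3, of the collapsin response mediators, by 2.72 (SE 0.35). The 2 effectors called lower, named after their values were seen, belong to the same family: Crmp1 fell by 3.69 (SE 0.72) and Dpysl5 by 2.55 (SE 0.56). Dpysl4 of that family, also named after its value was seen, was called higher, by 2.27 (SE 0.55). Dpysl2 was not called (0.41, SE 0.29). The counts in TECs stand beside 21.1% of all genes called, 9.3% higher and 11.8% lower, and the make-up of classes described above applies to them too. In FBs 1 of 12 partners, Vegfc (−0.89, SE 0.18), and 1 of 21 effectors were called, against 2.9% of all genes. In ECs 1 of 12 partners was called higher and 1 lower, and 1 of 20 effectors lower, against 2.05% of all genes called. Kdr rose by 1.28 (SE 0.28), and Met, a receptor tyrosine kinase that associates with class B plexins, fell by 2.08 (SE 0.42). The effector was Dpysl3, which fell by 0.89 (SE 0.20).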

How the data were processed

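The authors aligned reads to the mouse mm10 reference with Cell Ranger and deposited raw counts of UMIs for each gene and barcode, unnormalised and not corrected for free RNA. The kit is given as v2 in the labels and v3 in the methods. Cells with more than 1000 genes and under 20% mitochondrial UMIs were kept, the 3.9% with the highest doublet score per library were removed (scanpy 1.11.5), and members and partner genes were held out of clustering. Clusters were named from marker lists by a rule set after seeing the clusters, and names are rebuilt. UMIs were summed per library and lineage, ribosomal and haemoglobin genes left out, and tested with edgeR 4.0.16 (quasi-likelihood F test, TMM, filterByExpr, two-sided, Benjamini-Hochberg over all genes, threshold 0.05). The limit of each value is its count of UMIs. Statistics were tested on simulated data. Members and lists were chosen with earlier results of these data known. Values in every library are given for members called, for the 3 highest in each lineage and for those at least 5-fold higher in 1 tested lineage with at least 10 UMIs in each library. Other members named were chosen after their values were seen. Gene positions are from GENCODE vM21. Single values of some effectors are not reported here.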

Additional observations from a re-analysis of the deposited data

Results flagged for a closer look

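The change from WT to Z/Z differed between lineages for 12 pairs of member and lineage by the interaction test (edgeR). In FBs against TECs the differences on the log2 scale were −3.11 for Nrp1, 0.86 for Nrp2, 2.69 for Plxna4, 1.09 for Sema6a and 1.81 for Sema7a. In ECs against TECs they were −1.68 for Nrp1, 1.29 for Nrp2, 1.03 for Plxnd1, −2.25 for Sema3g, 1.92 for Sema5a, 1.19 for Sema6d and 2.64 for Sema7a. Positive values mean a Z/Z change above that in TECs. Nrp1 moved in opposite directions, higher in Z/Z TECs and lower in Z/Z FBs. Over the 5 alternatives that kept all libraries, Nrp1 kept its call in 4 for FBs against TECs and in 3 for ECs against TECs. Sema7a kept its call in 2 for ECs against TECs. Sema3g had 0 UMIs in the TECs of WT 2, so its fitted difference depends on the prior count, and Plxna4 had 2 UMIs in the FBs of WT 2. With 1 library left out in turn, Nrp1 in both comparisons and Sema7a in ECs against TECs passed in all 4 fits. Plxnd1 and Sema6d in ECs against TECs passed in none. Plxna4 ranged from 1.18 to 4.78 and lost its call in 3 fits, as did Sema6a. Nrp2 and Sema7a in FBs against TECs lost it in 2, and Nrp2, Sema3g (−9.03 to −1.81) and Sema5a (1.28 to 3.37) in ECs against TECs in 1.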

How the results depend on the processing

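Over the alternatives for single genes, 190 values kept their direction and their side of the threshold, 100 kept their direction and lost the call, and 6 reversed. In TECs, 6 members were called. Of all genes, 21.1% were called there, 20.5% with no filter on low counts, 23.7% with DESeq2 and 21.2% with cells thinned to 2000 UMIs. The count of members was 10 with no filter on low counts and with DESeq2, 3 with cells thinned to 2000 UMIs and with the third version of the naming rule, 1 with the first, 2 without mTEC2-like cells and 0 without both classes. It was 0 to 7 with 1 library left out, where the lone library is assumed to vary like the other group. Without Z/Z 1 none of 19814 genes passed, and 4562 had an unadjusted p under 0.05. In FBs, 2 were called, against 8 with no filter, 1 with shared barcodes kept once, 4 without clusters mostly of 1 genotype and 0 to 1 with 1 library left out. In ECs, 2 were called, against 1 with a limit of 500 genes or of 10% mitochondrial UMIs, 0 after thinning and 0 to 2 with 1 library left out. For FBs against TECs, 5 became 1 with the first version, 2 with the third, 1 without both classes and 2 to 6 with 1 library left out. For ECs against TECs, 7 became 1, 2, 2 and 4 to 7. Reversed values were, under the first version, Nrp1 in TECs (−0.41), Sema4d in TECs (0.01) and Nrp1 in ECs against TECs (0.90), and, under the third, Plxnb1 in TECs (−0.06), Sema6a in FBs against TECs (−0.01) and Plxnd1 in ECs against TECs (−0.29). Of all genes in FBs, 5.73% were called with no filter, 3.12% with shared barcodes kept once and 2.33% without clusters mostly of 1 genotype. Of those in ECs, 1.09% were called with the limit of 500 genes, 1.53% with that of 10% mitochondrial UMIs and 0.864% after thinning. Sema3c in TECs averaged 338 CPM after thinning, against 242. With the limit of 10% mitochondrial UMIs, shared barcodes kept once and resolution 2, FBs of Z/Z 1 numbered 840, 942 and 946, against 1207. Apart from the naming versions and removed classes, the cause of these moves was not tested.

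Deviations of same-numbered libraries correlated at −0.0840, −0.0408 and −0.0104 in TECs, FBs and ECs, so no shared deviation was visible. With 2 libraries a group and few cells in WT 2, this cannot exclude a pairing. A fit with a replicate block called 5, 2 and 2 members, and Plxnb1 in TECs lost its call (0.71). The interaction with a block could not be fitted, since the number is nested in library. The naming versions and removed classes were chosen after seeing the data. Depth limits values that rest on few UMIs, as for the 25 ECs of WT 2.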
